A study of Mus musculus with 2 samples.

Results

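Keratins and biliary identity genes were followed through the cells of healthy and injured mouse liver by single-cell RNA sequencing. The set held 8 of the 30406 genes that both libraries list, matched by Ensembl identifier. It comprised the type II keratins Krt7 and Krt8, the type I keratins Krt18, Krt19 and Krt23, the adhesion molecule Epcam and the transcription factors Sox9 and Onecut1. The rule named these genes outright and used no measured value, although the members were chosen with earlier results of these data known.

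The mice of both groups were Col1a2-CreER: Rosa26-tdTomato animals on a C57BL/6 background, 8 to 10 weeks old at the start in the study's methods. In this line the promoter of Col1a2, a collagen gene of mesenchymal cells, drives an inducible Cre recombinase that can switch on a red fluorescent protein. Mice of the healthy group were not injured. Mice of the CCl4 group received carbon tetrachloride, a toxin that hepatocytes convert into a damaging radical, 2 times a week for 12 weeks. Livers of both groups were digested with pronase and collagenase and spun on a Nycodenz gradient, and the study's methods add a magnetic depletion of CD45+ leukocytes, so the isolation itself helped to set which cells were present. Each group was 1 library, and how many mice entered it is not given in the sources used here. No test between the groups was therefore possible, and none of the differences below has a replicate check.

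Keratins are the intermediate filament proteins of epithelial cells, and a filament needs 1 type II chain paired with 1 type I chain. Hepatocytes build theirs from keratins 8 and 18 alone, whereas cholangiocytes, the epithelial cells of the bile ducts, add keratins 7 and 19, and mesothelial cells, which cover the surface of the liver, also make keratins. Epcam, Sox9 and Onecut1 (also called HNF6) are genes of the biliary lineage, and Onecut1 is active in hepatocytes as well.

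Krt7, Krt8 and Krt18 lie on 1 chromosome. The promoters of these 3 genes are shown because Krt8 and Krt18 had nearly the same pattern of levels across cell classes, while Krt7 had another. In the RefSeq annotation of GRCm38.p6, the build that the submitters' notes list as mm10, Krt7 (ENSMUSG00000023039) spans chromosome 15 from 101412403 to 101427806, Krt8 (ENSMUSG00000049382) from 101996711 to 102004342 and Krt18 (ENSMUSG00000023043) from 102028216 to 102032026. Krt8 and Krt18 are read away from each other with 23873 bases between them. The 250 bases before each start, chr15:101412153-101412402 on the plus strand, chr15:102004343-102004592 on the minus strand and chr15:102027966-102028215 on the plus strand, read as follows from 5′ to 3′, with matches to the motifs named after them in capitals.
Krt7: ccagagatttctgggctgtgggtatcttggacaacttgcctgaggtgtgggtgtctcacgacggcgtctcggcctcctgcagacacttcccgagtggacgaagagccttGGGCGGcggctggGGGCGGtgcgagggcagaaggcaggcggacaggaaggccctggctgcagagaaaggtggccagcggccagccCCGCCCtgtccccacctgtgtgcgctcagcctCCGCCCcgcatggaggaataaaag
Krt8: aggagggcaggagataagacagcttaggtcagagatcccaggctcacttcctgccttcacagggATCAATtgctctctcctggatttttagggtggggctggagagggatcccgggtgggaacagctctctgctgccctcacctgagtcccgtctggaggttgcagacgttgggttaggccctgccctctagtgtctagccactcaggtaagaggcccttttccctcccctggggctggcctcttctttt
Krt18: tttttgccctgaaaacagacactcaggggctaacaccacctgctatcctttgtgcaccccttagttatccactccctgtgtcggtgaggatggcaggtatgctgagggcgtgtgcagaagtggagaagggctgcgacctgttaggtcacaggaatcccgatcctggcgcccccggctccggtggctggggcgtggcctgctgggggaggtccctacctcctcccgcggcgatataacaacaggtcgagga
The letters searched on both strands were TATAAA for the basal promoter box of that name (in 12.4% of all 32851 RefSeq windows of this length), GGGCGG for the GC box (32.7%), TGANTCA for AP-1 (6.75%), GGAATG for TEAD factors (12.6%) and ATTGAT for HNF6, the product of Onecut1 (6.72%), and no matches overlapped in the 3 windows shown. The Krt7 window held 4 GC boxes, the nearest starting 24 bases before the gene. The Krt8 window held 1 match to ATTGAT, starting 186 bases before the gene and read on the opposite strand. The Krt18 window held none of the 5 motifs, which says only that these letters are not in it. GC content was 66% for Krt7, 58% for Krt8 and 60.4% for Krt18, against a median of 52.4% over all windows. Of the other members, Krt23 (ENSMUSG00000006777, chromosome 11, 99477973 to 99493120) had no match, Epcam (ENSMUSG00000045394, chromosome 17, 87635979 to 87651127) had 1 GC box and Onecut1 (ENSMUSG00000043013, chromosome 9, 74861921 to 74889648) had 2. Krt19 (ENSMUSG00000020911) and Sox9 (ENSMUSG00000000567) lie on chromosome 11, from 100140810 to 100145926 and from 112782210 to 112787757.

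The measured values were counts of UMIs, the molecular tags that mark single captured transcripts, read at the 3′ end. After filtering, 5602 healthy and 7314 CCl4 cells remained, with medians of 6783.5 and 11876 UMIs per cell. The cells were sorted into 24 clusters without the members, any other keratin or the partner genes described at the end, and 18 clusters were named from markers that include none of the members, so the names rest on other genes. Cholangiocyte-like cells carried 9 of 10 markers and numbered 1255 healthy and 17 CCl4 cells. Mesothelial-like cells carried 10 of 10 markers and numbered 231 and 934, but 229 of the healthy cells formed cluster 7 and all of the CCl4 cells cluster 19. Hepatocyte-like cells numbered 327 and 329, endothelial-like cells 3038 and 92, and mesenchymal-like cells 9 and 3113. Most of the CCl4 endothelial-like cells formed cluster 23, which was named on 3 markers and held Col1a1 at 2042 CPM, so no background was read from them. The libraries were written by different versions of Cell Ranger (3.1.0 for healthy, 6.0.1 for CCl4) against gene lists of 31053 and 32285 genes, which cannot be told apart from the group, and 10 cell barcodes occurred in both. Krt8 and Krt18 also have processed pseudogenes, and how reads shared with such copies were counted is not given in the sources used here.

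In healthy liver, cholangiocyte-like cells expressed all 8 members, led by the keratin pair Krt8 and Krt18. Levels below are CPM, the UMIs of a gene scaled to a common total for the class, with exact Poisson 95% intervals, which cover counting error only. Because a molecule gives 1 UMI whatever its length, CPM were not divided by transcript length. Krt8 stood at 1942 CPM (1922 to 1963) and Krt18 at 1870.2 CPM (1850.2 to 1890.4), and 99.8% and 99.9% of the 1255 cells had a UMI of them. These 2 intervals do not overlap, although the gap between the genes was small. Krt19, the type I keratin that marks bile ducts in histology, reached 604 CPM (592 to 615) and was seen in 96.1% of the cells. Krt7, its usual type II partner, reached 200 CPM (193 to 206), and Krt23, a type I keratin of some simple epithelia, 178 CPM (171 to 184). Krt7 and Krt23 were thus the lowest of the 5 keratins, with 83.2% and 80.2% of the cells holding a UMI.

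The non-keratin members followed the same class. Epcam, which joins epithelial cells to each other, stood at 1227 CPM (1211 to 1244) in healthy cholangiocyte-like cells and was seen in 99.8% of them. Sox9, a transcription factor of bile duct development, stood at 849.6 CPM (836 to 863) and was seen in 98.2%. Onecut1, the lowest of the 8, stood at 46.1 CPM (43.0 to 49.4) and was seen in 42.8%. The order of levels was therefore Krt8, Krt18, Epcam, Sox9, Krt19, Krt7, Krt23 and Onecut1, and no neighbours in this order had overlapping intervals. Shares were also computed at an equal depth of 2000 UMIs per cell, from each cell's chance of keeping a UMI when thinned. Over the 1250 cells that deep, the share was 95.5% for Krt8, 96.1% for Krt18, 90.6% for Epcam and 75.2% for Sox9. It was 63.4% for Krt19, 30.7% for Krt7, 28.8% for Krt23 and 8.64% for Onecut1.

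**Figure D1:**
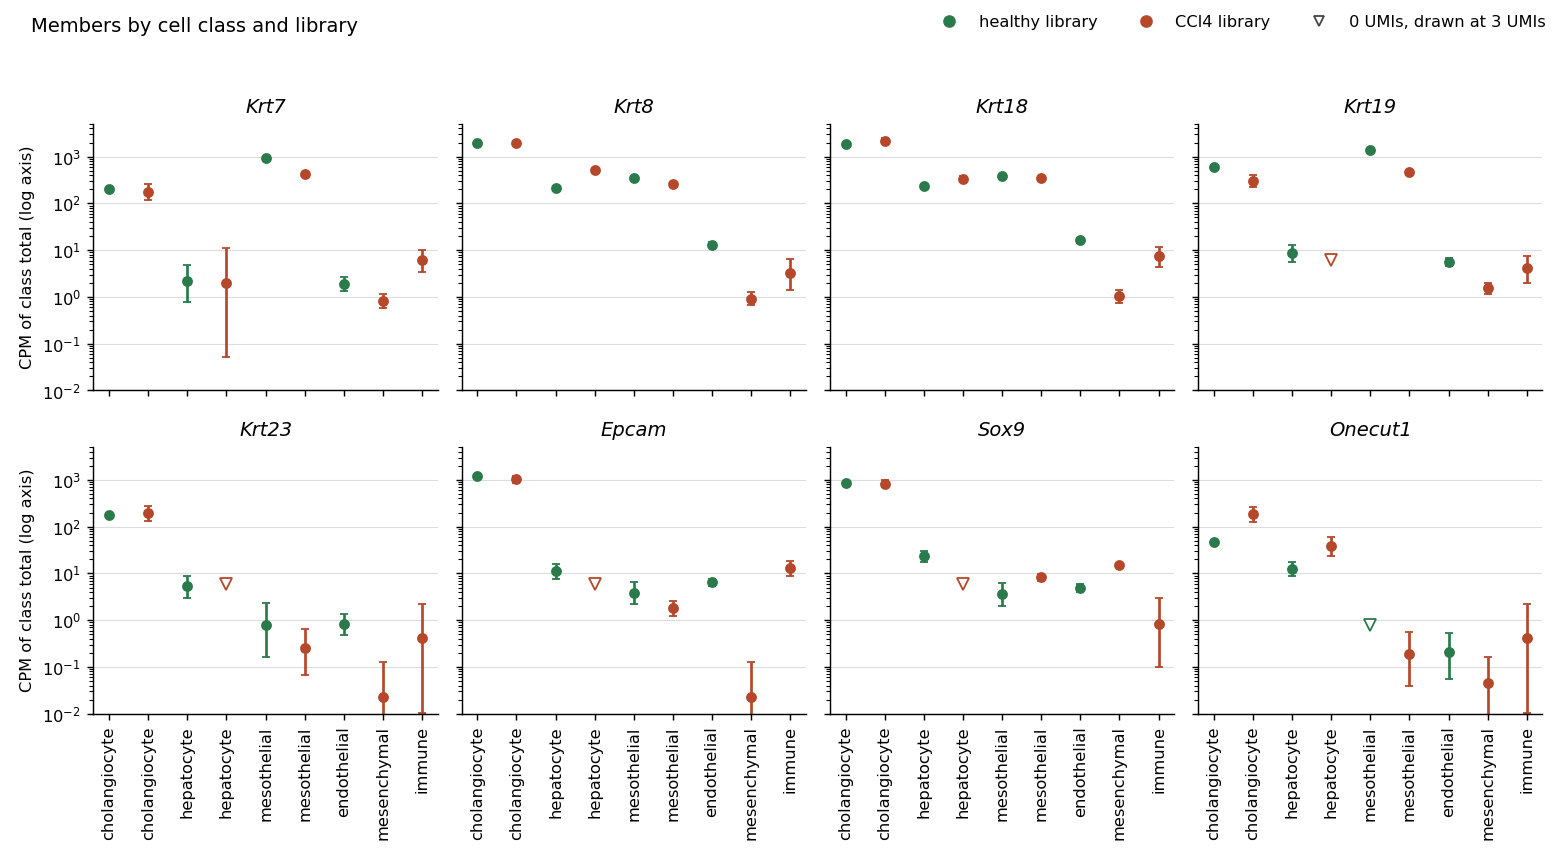
CPM of each member in the classes named under each panel, for the healthy library (green) and the CCl4 library (red), on a log axis with exact Poisson 95% intervals, with open triangles for 0 UMIs placed at 3 UMIs. Krt8, Krt18, Epcam, Sox9 and Krt23 were highest in cholangiocyte-like cells, whereas Krt7 and Krt19 were highest in healthy mesothelial-like cells, at 939.9 and 1356 CPM.

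Mesothelial-like cells showed the reverse balance of keratins. Krt19 stood at 1356 CPM (1320 to 1393) and Krt7 at 939.9 CPM (909.5 to 971) in healthy mesothelial-like cells, which was 2.25 times (2.17 to 2.32) and 4.71 times (4.50 to 4.93) the cholangiocyte-like level. Krt18 at 388 CPM (369 to 408) and Krt8 at 352 CPM (334 to 371) stood at only 0.207 (0.197 to 0.219) and 0.181 (0.172 to 0.191) times that level. Both orders thus differed between the classes by far more than counting error, within 1 library and 1 set of mice. Krt7 and Krt19 made up 75.6% (74.8 to 76.4) of the UMIs of the 5 keratins in healthy mesothelial-like cells but 16.8% (16.5 to 17.01) in healthy cholangiocyte-like cells.

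The biliary genes other than Krt7 and Krt19 were nearly absent from the mesothelium. In healthy mesothelial-like cells Krt23 had 3 UMIs (0.781 CPM), Epcam 15 (3.91 CPM), Sox9 14 (3.65 CPM) and Onecut1 0, which allows up to 0.781 CPM. These levels were 0.440% of the cholangiocyte-like level for Krt23, 0.318% for Epcam and 0.429% for Sox9. Spp1, the secreted protein osteopontin and the leading gene of the cholangiocyte-like cluster, was likewise at 0.429% there, so the 3 genes stood in the mesothelium about where this cholangiocyte RNA did. Keratins 7 and 19 in mesothelial-like cells, at 471% and 225% of the cholangiocyte-like level, stood far above that level.

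Healthy endothelial-like cells, which should lack all 8 genes, gave the measured background. Their levels lay between 0.449% (Onecut1) and 0.960% (Krt7) of the cholangiocyte-like level for the members, and at 0.730% for Spp1. At a median of 6395.5 UMIs, against 11702 in cholangiocyte-like cells, 7.67% of endothelial-like cells held a Krt8 UMI, 9.35% a Krt18 UMI and 4.02% an Epcam UMI. Shares of this size in other classes of the healthy library are not read as expression here.

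Above this background, healthy hepatocyte-like cells held keratins 8 and 18 and some Onecut1. Krt8 stood at 213 CPM (196 to 231) and Krt18 at 231 CPM (213 to 249.7), or 10.98% and 12.4% of the cholangiocyte-like level, and Onecut1 at 12.7 CPM (8.82 to 17.6), or 27.5%. Krt7 (1.09%), Krt19 (1.44%) and Epcam (0.913%) stood close to the 0.994% of Spp1 in the same cells. Sox9 at 23.1 CPM (2.72%) and Krt23 at 5.42 CPM (3.05%) stood somewhat higher. The 327 cells were not uniform. In the 48 deeply counted cells of cluster 1 (median 42576.5 UMIs), Krt8 was 159 CPM, Krt18 144 CPM, Onecut1 14.0 CPM and Sox9 12.9 CPM (1.52% of the cholangiocyte-like level), beside Spp1 at 0.390% and Epcam at 0.175%. In the 272 cells of cluster 8 (median 2392 UMIs), Krt8 was 324 CPM, Krt18 409 CPM and Sox9 44.5 CPM (5.24%), beside Spp1 at 2.18%, Epcam at 2.27% and Krt23 at 8.15%. Sox9 in hepatocyte-like cells was thus higher where cholangiocyte genes were higher, and the part of those genes in it was not tested.

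Summed over each class, type I UMIs outnumbered type II UMIs in both cholangiocyte-like and mesothelial-like cells, although different genes supplied them. The ratio of Krt7 and Krt8 to Krt18, Krt19 and Krt23 was 0.808 (0.797 to 0.819) in healthy cholangiocyte-like cells, 0.740 (0.714 to 0.768) in healthy mesothelial-like cells and 0.879 (0.786 to 0.983) in healthy hepatocyte-like cells. In the CCl4 library it was 0.771 (0.666 to 0.891) in cholangiocyte-like cells, 0.824 (0.803 to 0.845) in mesothelial-like cells and 1.52 (1.24 to 1.86) in hepatocyte-like cells. Only the CCl4 hepatocyte-like cells had more type II than type I UMIs among these 6 populations. Subclusters of the CCl4 mesothelial-like cells, described below, did not all share the balance of their class. The ratio was 1.26 (1.18 to 1.34) in the 173 cells of subcluster 0 and 1.19 (1.12 to 1.26) in the 233 cells of subcluster 2. It was 0.590 to 0.850 in the other subclusters of at least 50 cells. Within the pair, Krt8 over Krt18 was 1.04 (1.02 to 1.05) in healthy cholangiocyte-like, 0.907 (0.842 to 0.977) in healthy mesothelial-like and 0.734 (0.705 to 0.765) in CCl4 mesothelial-like cells.

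Single cells used the keratins together in the way the class sums did. At 2000 UMIs per cell, 91.9% (90.2 to 93.3) of 1250 healthy cholangiocyte-like cells had both Krt8 and Krt18, and 20.3% (18.1 to 22.7) had both Krt7 and Krt19. In 228 healthy mesothelial-like cells the order was the opposite, with 24.2% (18.8 to 30.3) holding Krt8 and Krt18 and 72.3% (66.0 to 78.0) holding Krt7 and Krt19. Epcam and Sox9 were found together in 68.1% of the cholangiocyte-like cells, and a further 22.4% held Epcam without Sox9. The shares depend on the thinned depth, and the first value was 67.8% at 1000 UMIs and 99.8% at 5000 UMIs.

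After CCl4, the keratins of mesothelial-like cells were lower, and the 2 that set these cells apart were lower by the most. Krt19 was 1356 CPM in the healthy and 474 CPM (463 to 484) in the CCl4 library, a ratio of 0.349 (0.337 to 0.362), and Krt7 was 939.9 and 422 CPM (412 to 432), a ratio of 0.449 (0.431 to 0.468). Krt8 was 352 and 257 CPM, a ratio of 0.729 (0.686 to 0.776), and Krt18 was 388 and 349.8 CPM, a ratio of 0.901 (0.851 to 0.955). All 4 ratios were below 1, and the difference was least for Krt18. Krt7 and Krt19 together made up 59.6% (59.0 to 60.2) of the keratin UMIs, against 75.6% in the healthy library. The median depth was 18546 and 16922 UMIs per cell. The share of cells with both at 2000 UMIs was 24.9% (22.1 to 27.8) of 902 cells, against 72.3%.

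Of the 8 members, 4 reached 50 CPM in mesothelial-like cells of either library, and 2 of these 4 were lower in the CCl4 library by more than 2-fold and 0 higher. Of all 3623 genes at that level, 15.0% were lower and 8.31% higher by more than 2-fold, with a median log2 ratio of -0.07 against -0.81 for the 4 members. The keratin differences came with others in the same cells: Msln, a mesothelial surface protein, was 2492 CPM in the healthy and 600.4 CPM in the CCl4 cells and Col1a1 was 133 and 422 CPM, both chosen after their values were seen, and their part in the result was not tested. With a minimum of 1000 UMIs per cell, 1480 CCl4 cells took the mesothelial name, and the ratios were 0.268 for Krt7, 0.449 for Krt8, 0.510 for Krt18 and 0.229 for Krt19.

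The other members were scarce in mesothelial-like cells of both libraries. Sox9 had 14 UMIs in the healthy and 132 UMIs in the CCl4 mesothelial-like cells, at 3.65 and 8.23 CPM (6.89 to 9.76), a ratio of 2.26 (1.30 to 4.24). With no doublets removed this ratio was 0.751, so its direction depended on that step. Epcam had 15 and 29 UMIs, Krt23 had 3 and 4, and Onecut1 had 0 and 3. In CCl4 mesenchymal-like cells, which should lack keratins, the 4 abundant keratins stood at 0.197% (Krt7) to 0.360% (Krt8) of the mesothelial-like level.

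**Figure D2:**
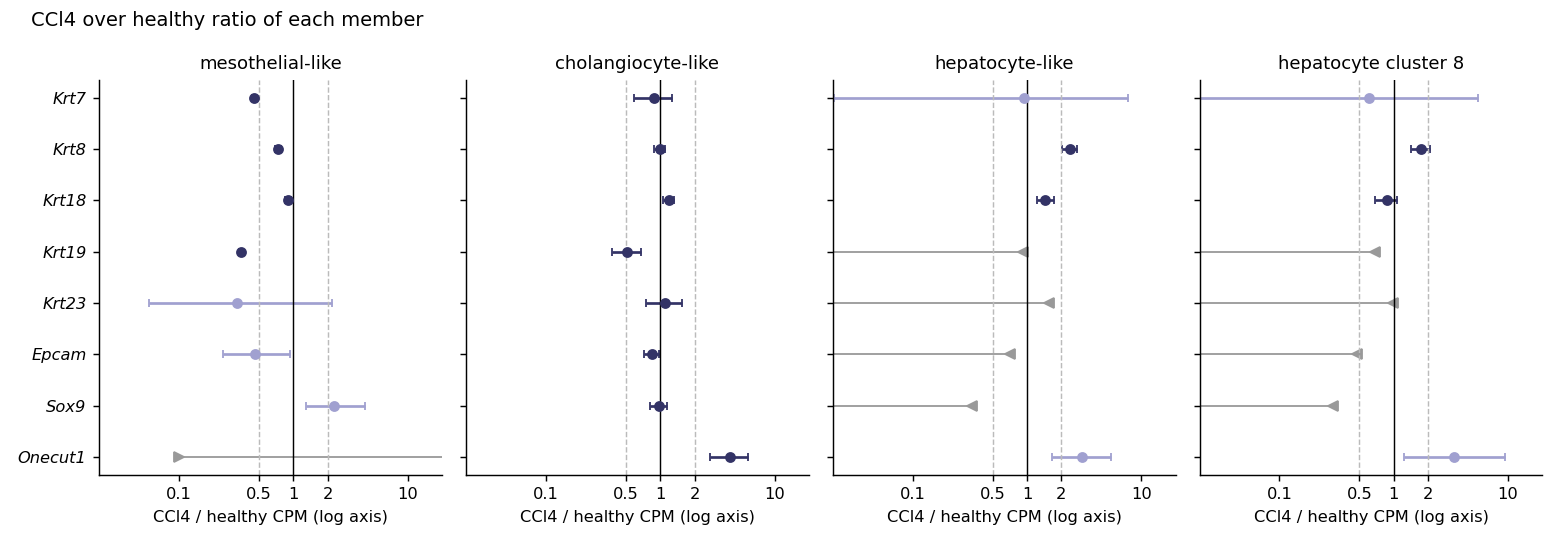
Ratio of CPM in the CCl4 library to CPM in the healthy library for each member, on a log axis with exact 95% intervals, in mesothelial-like, cholangiocyte-like and hepatocyte-like cells and in hepatocyte cluster 8 alone. Dark points are members at 50 CPM or more in either library, pale points are lower, grey arrows are one-sided limits where 1 library had 0 UMIs, and dashed lines mark 2-fold. Krt7 and Krt19 lie left of the lower 2-fold line in mesothelial-like cells, at 0.449 and 0.349.

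Keratin levels also varied among the mesothelial-like cells of the CCl4 library. When these cells were clustered again on their own, Krt19 ranged from 207 CPM to 897 CPM over 6 subclusters of at least 50 cells, a 4.32-fold range, Krt18 from 157 to 565 CPM, Krt8 from 126 to 432 CPM and Krt7 from 212 to 554 CPM. All 4 were highest in the same subcluster of 196 cells, led by Lgals7, Myl7 and Clic3, in which Msln was also the highest of the subclusters at 1088 CPM. Krt19 in these cells (868 to 926) still lay below the healthy value of 1356 CPM, and Krt7 below the healthy 939.9 CPM. Krt8 at 432 CPM and Krt18 at 565 CPM lay above the healthy values of 352 and 388 CPM. Krt7, Krt8 and Krt18 were lowest in a subcluster of 81 cells with a median of 4545 UMIs and 17.4% mitochondrial UMIs.

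The pairing of Krt7 with Krt19 was not fixed within this class. Krt7 over Krt19 was 1.93 (1.77 to 2.12) in the 173 cells of subcluster 0, led by Npas4 and Pnoc, and 0.464 (0.418 to 0.513) in the 105 cells of subcluster 4, led by Hsd11b1 and Plvap. In the healthy mesothelial-like cells the same ratio was 0.695 and 0.717 in the 2 subclusters of at least 50 cells and 0.582 in another of 47 cells. The range was wider among the CCl4 subclusters than among the healthy ones. The 934 CCl4 cells gave 6 subclusters of at least 50 cells and the 231 healthy cells gave 2, and the part of this in the range was not tested.

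In healthy cholangiocyte-like cells the members varied less. Over 6 healthy subclusters, Epcam ranged from 1169 to 1284 CPM, Krt8 from 1694 to 2113 CPM, Krt18 from 1739 to 2075 CPM and Sox9 from 672 to 933 CPM. Krt7 (154 to 316 CPM), Krt23 (123 to 223 CPM) and Krt19 (524 to 797 CPM) varied more. Krt7 and Krt19 were highest in the same 154 cells, led by Dmbt1, S100a6, Anxa3 and Tff2, secreted and calcium-binding proteins of mucosal epithelia among them. Their median of 19004 UMIs was the highest of the 6 subclusters, and Msln was 25.4 CPM in them against 0.753 to 2.33 CPM in the others and 2492 CPM in healthy mesothelial-like cells. The part of depth and of mesothelial RNA in the result was not tested.

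**Figure D3:**
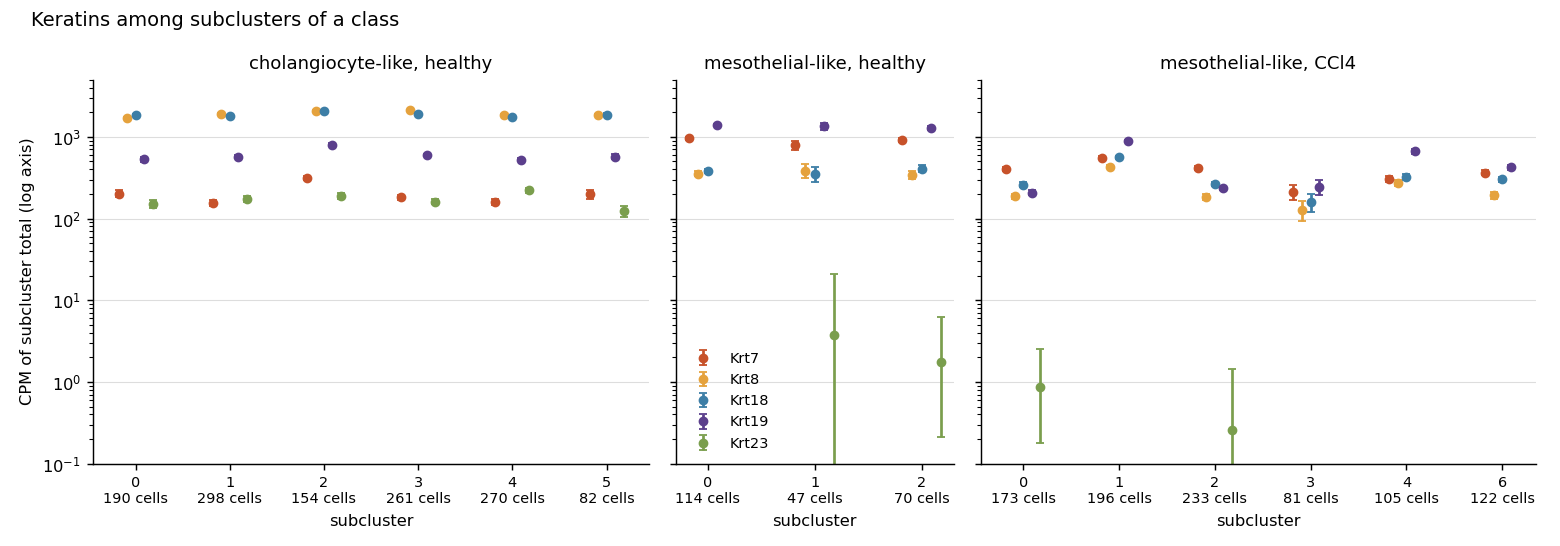
CPM of the 5 keratins in subclusters of healthy cholangiocyte-like, healthy mesothelial-like and CCl4 mesothelial-like cells, on a log axis with exact Poisson 95% intervals, with members at 0 UMIs not drawn and subclusters of under 40 cells left out. Krt8 and Krt18 stay together in cholangiocyte-like cells, while Krt19 spans 207 to 897 CPM among the CCl4 mesothelial-like subclusters.

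Keratin-rich cells also occurred outside the named mesothelium of the CCl4 library. Cluster 22, which held 633 CCl4 cells led by Serpinb2 and Enpp2 and stayed unnamed with 2 mesothelial markers, had Krt19 at 117 CPM (111 to 122), Krt8 at 45.5 CPM and Krt7 at 42.5 CPM. In it, 16.4% (13.6 to 19.6) of the cells held 5 or more UMIs of the 5 keratins, and 75% of these held a Msln UMI against 14.4% of the rest. In cluster 20, 152 CCl4 cells led by genes of cell division such as Prc1 and Ube2c, Krt19 was 166 CPM (153 to 179), and 23.03% (16.6 to 30.5) of the cells passed the same count, with Msln in 88.6% of these and 5.98% of the rest. Among named mesothelial-like cells 87.8% of the CCl4 and 98.7% of the healthy cells passed it. In both unnamed clusters the keratin-rich cells were thus a minority that mostly also held Msln. They were deeper than the rest, with medians of 24654 against 19471 UMIs in cluster 22 and 32499 against 23578 UMIs in cluster 20.

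In the few CCl4 cholangiocyte-like cells, most members stood near their healthy level and Onecut1 stood higher. The class had 17 cells and 159152 UMIs, so its intervals are wide. Onecut1 had 30 UMIs, or 188 CPM (127 to 269), against 46.1 CPM in healthy cells, a ratio of 4.09 (2.74 to 5.88). Alb, the albumin gene of hepatocytes, was 13088 CPM in these cells against 5567 CPM in the healthy ones, and its part in the result was not tested. Krt19 had 49 UMIs, or 308 CPM (228 to 407), against 604 CPM, a ratio of 0.510 (0.377 to 0.675). The ratio was 1.18 (1.06 to 1.31) for Krt18, 0.840 (0.716 to 0.979) for Epcam, 0.987 (0.879 to 1.10) for Krt8, 0.969 (0.809 to 1.15) for Sox9, 0.882 (0.585 to 1.28) for Krt7 and 1.10 (0.744 to 1.56) for Krt23. The last 4 intervals include 1.

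All 8 members reached 50 CPM in cholangiocyte-like cells of at least 1 library, of which 1, Onecut1, was higher and 0 lower by more than 2-fold. Onecut1 reached 50 CPM only in the CCl4 library, where it was high (188 CPM from 30 UMIs, against 46.1 CPM in the healthy library). Of all 3965 genes at 50 CPM in either library, 3.76% were higher and 10.1% lower. The median log2 ratio was -0.11 for these genes and -0.03 for the members. Clustering each library alone gave the name to 148 CCl4 cells, in which the ratio was 2.91 for Onecut1 and 0.503 for Epcam, 0.588 for Sox9, 0.528 for Krt7, 0.654 for Krt8 and 0.775 for Krt18, which reverses the direction for Krt18.

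A second group of cells carried biliary genes at low depth. A cluster numbered 10 had 8 of 10 cholangiocyte markers but stayed unnamed for its low UMI count, with 178 healthy cells (median 2120 UMIs and 15.4% mitochondrial UMIs) and 16 CCl4 cells (median 5648.5 and 7.42%). Krt8 and Krt18 in its healthy cells were 0.880 and 0.931 times the cholangiocyte-like level, Epcam 0.690 times, Sox9 0.649 times and Krt23 0.513 times. Onecut1 had 15 UMIs in the healthy cells (36.9 CPM) and 25 UMIs in the CCl4 cells (285 CPM), a ratio of 7.72 (3.91 to 15.7). Krt19 did not differ beyond counting error in this cluster, at 629.7 and 638 CPM with a ratio of 1.01 (0.745 to 1.36). Higher Onecut1 was thus measured in both small sets of CCl4 biliary cells, and lower Krt19 in 1 of them. Alb was also higher in the CCl4 cells of cluster 10, at 7725 against 3719 CPM, and its part in the result was not tested. Both sets come from 1 library.

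In hepatocyte-like cells of the CCl4 library, which had a median of 898 UMIs against 2891 in the healthy library, Krt8 stood higher and Krt19, Krt23, Epcam and Sox9 had 0 UMIs. Krt8 was 507 CPM (446 to 573) against 213 CPM in the healthy library, a ratio of 2.37 (2.04 to 2.76), and Onecut1, with 19 and 35 UMIs, was 38.5 and 12.7 CPM, a ratio of 3.04 (1.64 to 5.47). Krt18 was 334 CPM (285 to 389) against 231 CPM, a ratio of 1.45 (1.21 to 1.72). The Krt18 direction was not stable: the ratio was 0.779 when every cell weighed the same, 0.881 with at most 10% mitochondrial UMIs and 0.865 (0.690 to 1.08) in cluster 8, the 1 hepatocyte cluster that both libraries held in number. Under the same 3 settings the Krt8 ratio was 1.49, 1.69 and 1.73 (1.42 to 2.09), so Krt8 stayed higher but by less than 2-fold. Of the 2765449 UMIs of healthy hepatocyte-like cells, 1863141 came from the 48 cells of cluster 1, which held 0 CCl4 cells. Krt8 was 159 CPM and Krt18 144 CPM in them, and the cluster 8 ratios leave these cells out. Krt7 had 1 UMI in the CCl4 cells.

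Of the 8 members 2 reached 50 CPM in hepatocyte-like cells, of which 1 was higher and 0 lower by more than 2-fold. Of all 2749 genes at that level 23.1% were higher and 22.2% lower, and the median log2 ratio of all these genes was 0.36, against 1.25 for Krt8 and 0.53 for Krt18. TMM scaling, an alternative, moved all log2 ratios in this class by -0.18 and gave 2.10 for Krt8. Sox9 had 64 UMIs in the healthy and 0 in the CCl4 hepatocyte-like cells, where 0 allows up to 6.08 CPM against 23.1 CPM. Epcam, Krt19 and Krt23 had 31, 24 and 15 UMIs in the healthy cells, or 11.2, 8.68 and 5.42 CPM. The healthy Krt23 level lay below 6.08 CPM, so its 0 in the CCl4 cells shows no difference, and Krt19 lay little above it. Spp1 was 261 CPM in the healthy and 152 CPM in the CCl4 cells. Alb was 30679 and 4778 CPM, and the mesenchymal genes Col1a1 and Vim were 0.362 and 446 CPM and 9.04 and 184 CPM. In cluster 8 alone Alb was 14442 and 6175 CPM and Col1a1 0 and 239 CPM. The part of these genes in the Krt8 and Sox9 differences was not tested. The 225 CCl4 cells of cluster 13 had a median of 724 UMIs, with Krt8 at 427 CPM, Krt18 at 305 CPM and Onecut1 at 45.8 CPM.

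Outside epithelial cells, Sox9 was found in mesenchymal-like cells of the CCl4 library, without the rest of the biliary set. It had 649 UMIs in 3113 cells, at 15.0 CPM (13.9 to 16.2), while Epcam and Krt23 had 1 UMI each and Onecut1 2. Sox9 is also a gene of cartilage and of matrix-producing cells. Its level depended on the cluster, with 34.7 CPM (31.6 to 38.0) and a UMI in 29.8% (26.9 to 32.9) of the 918 cells of cluster 16, led by Thbs4 and Mfap4. It was 15.0 CPM in cluster 11, led by the smooth muscle genes Acta2 and Tagln, 9.79 CPM in the dividing cells of cluster 21 and 1.13 CPM (0.687 to 1.74) in cluster 17, which carried the stellate cell gene Lrat. The median depth of these 4 clusters lay between 13055 and 14215.5 UMIs. The 9 healthy mesenchymal-like cells had 0 Sox9 UMIs, which allows up to 41.7 CPM, so no comparison with injury was possible.

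Epcam was found at low counts in leukocyte-like cells of the CCl4 library. It reached 26.3 CPM (15.0 to 42.7) in the 132 cells of cluster 12 and 21.8 CPM (10.9 to 39.0) in the 112 T and NK cell-like cells, against 4.43 CPM (1.44 to 10.3) in macrophage and monocyte-like cells and 0 UMIs in 67 neutrophil-like cells. Cluster 12 was named for B and plasma cells but also held Siglech, a gene of plasmacytoid dendritic cells. Of its 60 cells with a Siglech UMI, 11 held Epcam (18.3%, 9.52 to 30.4), and of its 72 cells without it, 3 did (4.17%, 0.868 to 11.7), a split chosen after the values were seen. The median depth was 6420 UMIs in the first and 3014.5 UMIs in the second set of cells. The 5 keratins together had 6 UMIs in each set, and Spp1 was 4.93 CPM in the cluster. The T and NK cell-like cells held 30 keratin UMIs beside 11 of Epcam.

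**Figure D4:**
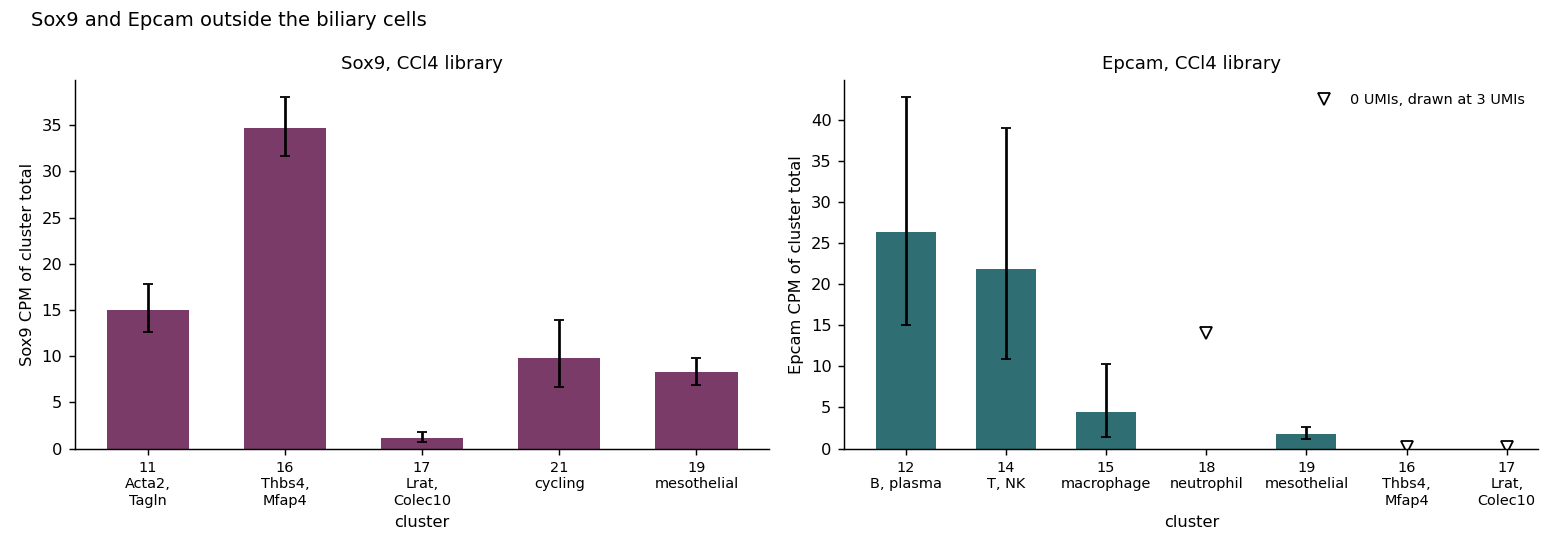
CPM of Sox9 (left) and Epcam (right) in clusters of mesenchymal-like, leukocyte-like and mesothelial-like cells of the CCl4 library on linear axes from 0, with exact Poisson 95% intervals and open triangles for 0 UMIs drawn at 3 UMIs. Of the clusters drawn, which leave out the biliary ones, Sox9 is highest in cluster 16 at 34.7 CPM and Epcam in cluster 12 at 26.3 CPM.

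The keratin UMIs of the 2 libraries came from different cells. In the healthy library, cholangiocyte-like cells held 91.6% of the Krt8 UMIs, 90.7% of Krt18, 96.5% of Epcam, 97.0% of Sox9, 97.6% of Krt23 and 93.2% of Onecut1. Krt7 was shared, with 48.8% in cholangiocyte-like and 49.3% in the 231 mesothelial-like cells, and so was Krt19, with 65.6% and 31.6%. In the CCl4 library the mesothelial-like cells held 87.6% of Krt7, 70.9% of Krt8, 81.8% of Krt18 and 76.5% of Krt19. There the 17 cholangiocyte-like cells still held 54.5% of the 301 Epcam UMIs, and mesenchymal-like cells held 56.8% of the 1142 Sox9 UMIs. These shares follow the number of cells of each class that were captured, which the isolation helped to set.

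**Figure D5:**
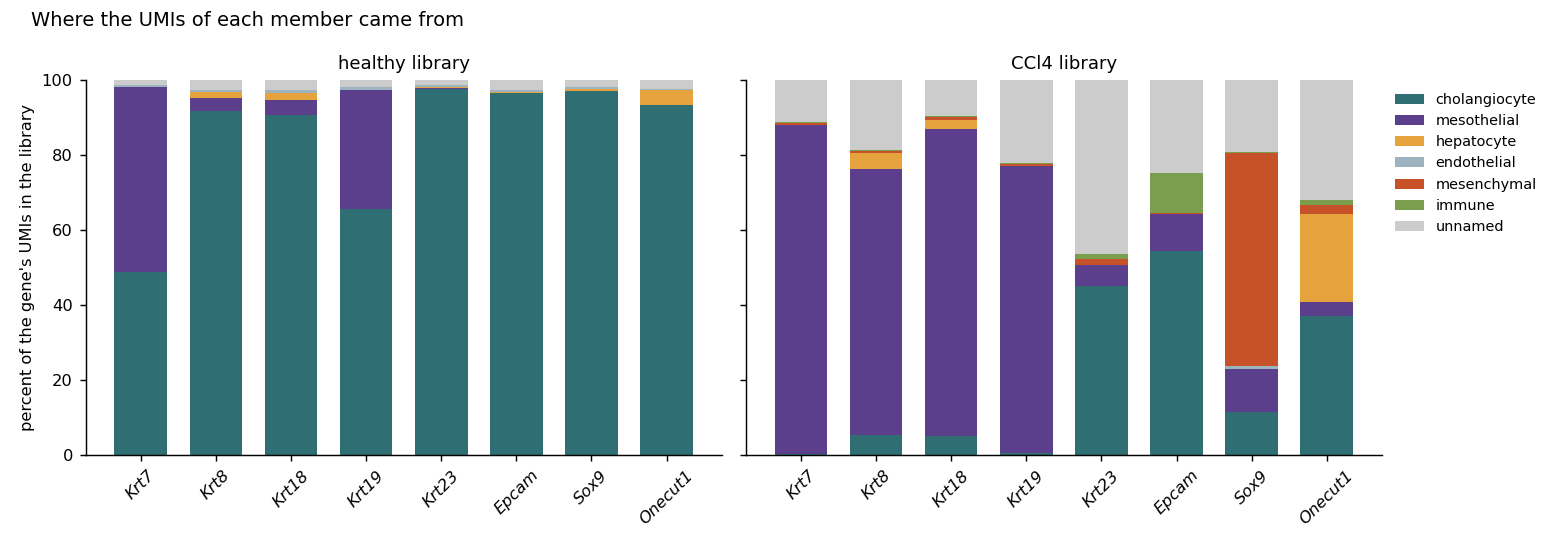
Percent of each member's UMIs in the healthy (left) and CCl4 (right) library that came from each class, stacked to 100%. Cholangiocyte-like cells hold most UMIs of every member but Krt7 (48.8%) in the healthy library, and mesothelial-like cells hold most of Krt7, Krt8, Krt18 and Krt19 in the CCl4 library.

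The other 48 keratins that both libraries list were low in or absent from cholangiocyte-like and mesothelial-like cells. In healthy cholangiocyte-like cells 1 of 48 reached 20 CPM, namely Krt10 at 22.4 CPM, followed by Krt17 at 4.70 CPM. In healthy mesothelial-like cells 1 did, Krt14 at 22.9 CPM. In CCl4 mesothelial-like cells none did, with Krt14 at 15.7 CPM and Krt10 at 12.8 CPM the highest. In CCl4 hepatocyte-like cells 2 did, Krt79 at 60.8 CPM and Krt4 at 20.3 CPM. None of the 48 reached 50 CPM in healthy cholangiocyte-like cells or in mesothelial-like cells of either library, in contrast to Krt7, Krt8, Krt18 and Krt19.

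Genes that work beside keratins separated the classes in part. Of 21 genes of epithelial junctions, 14 reached 50 CPM in healthy cholangiocyte-like cells, led by the claudin Cldn3 at 856 CPM and the desmosomal cadherin Dsg2 at 661 CPM, and 6 did in mesothelial-like cells of each library. In classes that should lack keratins, 3 did in healthy endothelial-like cells, 2 in CCl4 mesenchymal-like cells and 0 in CCl4 leukocyte-like cells. Between the mesothelial-like libraries, 10 junction genes reached 50 CPM. Of these, 2 were higher and 5 lower by more than 2-fold, with a median log2 ratio of -0.57. Of all 3623 genes at that level, 8.31% were higher and 15.0% lower, with a median log2 ratio of -0.07. Cldn3 was 5.99 CPM in the healthy and 152 CPM in the CCl4 cells (ratio 25.3) and Dsg2 26.6 and 125 CPM (ratio 4.70). F11r, a tight junction adhesion molecule, was 485 and 78.9 CPM (ratio 0.163) and Perp, a desmosomal membrane protein, 57.6 and 4.55 CPM (ratio 0.0791). Cldn3 and Dsg2 reached 50 CPM only in the CCl4 mesothelial-like cells, where they were high. Perp, Ppl (136 and 38.9 CPM), Cgn (107 and 19.8 CPM) and Jup (88.0 and 36.0 CPM) reached it only in the healthy ones, where they were high. Of the junction genes past 2-fold, only F11r reached 50 CPM in both libraries.

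Transcription factors separated the classes as well. Of 10 epithelial regulators, 4 reached 50 CPM in healthy cholangiocyte-like cells, led by Ehf at 135 CPM and Klf5 at 86.7 CPM, and 0 in mesothelial-like cells of either library. Of 12 liver epithelial transcription factors, 9 did in healthy cholangiocyte-like cells, led by Sox4 at 1018 CPM and Hhex at 642 CPM, against 1, Sox4, in mesothelial-like cells (184 CPM healthy and 287 CPM CCl4). Sox4 was also 280 CPM in CCl4 mesenchymal-like cells. Mesothelial-like cells also held other filament genes. Vim, which encodes vimentin, was 4596 CPM in the healthy and 1341 CPM in the CCl4 cells (ratio 0.292). Prph, which encodes peripherin, was 534.7 and 17.8 CPM (ratio 0.0334) and reached 50 CPM only in the healthy cells. Thus 2 of the 3 other filament genes at 50 CPM were lower by more than 2-fold and 0 higher. Of all genes at that level in mesothelial-like cells, 15.0% were lower and 8.31% higher by more than 2-fold. Lmna, a nuclear lamin, was 262 and 141 CPM in the healthy and CCl4 mesothelial-like cells. It was the highest of the other filament genes in healthy cholangiocyte-like cells at 181 CPM, ahead of Lmnb1 at 28.5 CPM. Of 7 keratin linkers, 3 reached 50 CPM in mesothelial-like cells and 0 passed 2-fold, with Dst at 80.5 and 132 CPM and Plec, which encodes the linker plectin, at 187 and 97.0 CPM. In healthy cholangiocyte-like cells 2 of the 7 reached 50 CPM, Pnn at 114 CPM and Plec at 95.2 CPM. The linkers did not separate these classes from others, as 2 reached 50 CPM in healthy endothelial-like cells, 3 in CCl4 mesenchymal-like and 3 in CCl4 leukocyte-like cells.

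The genes whose pattern was most like each member were sought over the 12 populations of at least 50 cells, among 4475 genes at 100 CPM or more in 1 of them, by Pearson's r of log2(CPM + 10). These r values are descriptions only, since the populations share 2 libraries with their depth and free RNA, and members are near 0 in most of them. Krt8 and Krt18 were each other's nearest gene (r = 0.993), followed by Eps8l2 (0.957 and 0.963), with Stxbp6 for Krt8 (0.955) and Palmd for Krt18 (0.963). Krt7 was nearest to Sema3c (0.991), Thsd4 (0.988) and Myrf (0.986), and Krt19 to Il17re (0.995), Prr15l (0.979) and Krt7 (0.975). Krt23 was nearest to Cldn6, Ehf and Slc5a1 (0.997 each), Epcam to St14 (0.982), Smim6 (0.968) and Krt23 (0.955), and Sox9 to Ankrd1 (0.989), Shank2 (0.979) and Scara3 (0.978). Onecut1, itself under the minimum, was nearest to Akr1c19 (0.970), Apcs (0.953) and its relative Onecut2 (0.951).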

How the data were processed

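Liver cells of 1 healthy and 1 CCl4 library were profiled by 3′ droplet RNA sequencing (10x Genomics). The authors deposited whole-number UMI counts per gene and barcode, not normalized. Per the file headers, Cell Ranger 3.1.0 wrote the healthy and 6.0.1 the CCl4 matrix. The submitters' notes list GRCh38 and mm10, and the identifiers are mouse. Total counts were 51122846 and 97611831 UMIs over 6297 and 8460 barcodes, and the 30406 shared genes held 99.9% and 99.6% of them. Names rebuilt here can differ from those of the study.

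Cells with at least 500 UMIs, 200 genes and at most 30% mitochondrial UMIs were kept. Scrublet, run per library at an expected rate of 0.8% per 1000 cells, removed 277 healthy and 487 CCl4 doublets. Counts were scaled to 10000, 115 genes (members, other keratins, partners) were left out, and 2000 variable genes, 10 principal components, 20 neighbours and Leiden resolution 1 gave 24 clusters (scanpy 1.11.5 on python 3.11.15; intervals from scipy 1.17.1). A marker counted at 2-fold over other cells and 10% of cells, and a name needed 3. Where another class had more markers among the 10 leading genes, the cluster stayed unnamed, as clusters 4 and 9 did (652 and 861 CCl4 cells). A cluster whose median depth was under 0.333 of its library's with no marker among its 10 leading genes stayed unnamed. Members and lists were chosen with earlier results of these data known.

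UMIs were summed per class and library as CPM with exact Poisson 95% intervals. Shares were given exact Clopper-Pearson limits and ratios of 2 counts exact conditional binomial ones, and where no UMI was seen the limit is the level of 3 counts. Thinned shares are computed chances of keeping a UMI, averaged over the cells with enough UMIs, so their limits are approximate. No test was run and no p was computed, since each group was 1 library. Genes at 50 CPM in either library entered counts past 2-fold. The genes named beside members were, per list, the 2 highest in healthy cholangiocyte-like and in CCl4 mesothelial-like cells, the 2 largest rises and falls in the mesothelial comparison, and the 3 most like each member. Subclusters (resolution 0.5), the low-depth biliary cluster and hepatocyte cluster 8 were chosen after seeing the data. The scripts were tested on simulated data. Alternatives were other filters, clustering settings, cell weights, scalings (edgeR 4.0.16 TMM; the 50 most abundant genes left out) and thinning depths.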

Additional observations from a re-analysis of the deposited data

How the results depend on the processing

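No paired analysis was possible because each group was 1 library, and for the same reason no replicate could be left out. Of 512 alternative CPM values of the members, 432 stayed within the counting interval and 80 moved. Of 202 alternative ratios 159 stayed, 38 moved and 5 reversed. Of 35 alternative ratios of type II to type I keratins 34 stayed. The reversed ratios were Sox9 in mesothelial-like cells with no doublets removed (0.751), Krt18 in cholangiocyte-like cells with each library clustered alone (0.775), and Krt18 in hepatocyte-like cells with equal cell weights (0.779), in hepatocyte cluster 8 alone (0.865) and with at most 10% mitochondrial UMIs (0.881). The cause was not tested. With no doublets removed, Krt19 in healthy cholangiocyte-like cells was 589.98 CPM. Without the 50 CPM minimum, Krt23 and Epcam were also lower past 2-fold in mesothelial-like cells, and Sox9 was higher past 2-fold (ratio 2.26). Krt23 rested on 4 CCl4 and 3 healthy UMIs (ratio 0.319, 0.054 to 2.18), an interval that includes 1. Epcam rested on 29 and 15 UMIs (ratio 0.463, 0.240 to 0.929). In hepatocyte-like cells 0 members in place of 1 were higher past 2-fold under each of the 3 settings that reversed Krt18. Both Krt8 and Krt18 were seen in 67.8% of cholangiocyte-like cells at 1000 UMIs and in 99.8% at 5000 UMIs, and 9 junction genes in place of 14 reached a minimum of 100 CPM there. TMM scaling moved log2 ratios by 0.10 in mesothelial-like and 0.09 in cholangiocyte-like cells and reversed no ratio in them whose interval left out 1. Depth limits the 17 CCl4 cholangiocyte-like cells, where 3 UMIs are 18.8 CPM.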
